A study of Mus musculus with 6 samples.

Results

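The genes described here are macrophage genes, chosen by name from the table of expression values. Of the 10 chosen, all were found among the 17924 genes of the table, and 9 are described: Adgre1 and Csf1r as pan-macrophage genes, Mrc1, Cd163, Lyve1, Retnla and Chil3 as genes of alternative activation, and Trem2 and Gpnmb as genes of lipid-associated macrophages. RNA-seq was performed on total RNA of fibroblasts that were isolated from the dorsal dermis of newborn C57BL/6J mice and kept for 14 days in adipocyte differentiation medium. Mice of both groups carried Pdgfra-Cre+, which expresses Cre under the promoter of Pdgfra, a gene of fibroblasts and preadipocytes. Controls (CTL) had either 1 floxed allele (Nelfb fl/wt) or none (Nelfb wt/wt), and the labels do not tell these genotypes apart, while the cells called Nelfb-/- (labelled KO) were Nelfb fl/fl. There were 3 biological replicates in each group, and neither the labels nor the methods describe a sort for or against macrophages. The comparison asks which genes change when Nelfb, a subunit of the complex that holds RNA polymerase II in a paused state, is lost from cells in adipocyte medium.

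Macrophages live and differentiate under signals through the receptor Csf1r, and the transcription factor PU.1 (Spi1) is needed for most of their genes. In adipose tissue and skin, resident macrophages commonly carry the scavenger receptors Mrc1 and Cd163 and the hyaluronan receptor Lyve1. The cytokines IL4 and IL13 act through STAT6 and induce Retnla and Chil3 in mouse macrophages, which is known as alternative activation. Trem2 is a lipid-sensing receptor of macrophages in obese fat and in plaques, and Gpnmb is a glycoprotein of such cells, of osteoclasts and of melanocytes.

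Promoter windows of RefSeq (GRCm38.p6, 250 bases before to 50 bases after the start of the gene) were matched to 6 of the 9 genes. Adgre1, Csf1r and Lyve1 had no matching entry. The windows were searched on both strands for GAGGAA, the core that PU.1 binds, and for TTC and GAA at a spacing of 4 bases, the palindrome of STAT6. The upstream sequences of the following 4 genes are shown because Mrc1 and Trem2 were upregulated in Nelfb-/- cells, Retnla was split between the Nelfb-/- libraries and Gpnmb did not follow the other macrophage genes. Each runs 5′ to 3′ on the plus strand and ends before the first annotated transcript start, with matches to either motif in capitals (TTCCTC is GAGGAA read on the other strand).
Mrc1, chr2:14229164-14229391: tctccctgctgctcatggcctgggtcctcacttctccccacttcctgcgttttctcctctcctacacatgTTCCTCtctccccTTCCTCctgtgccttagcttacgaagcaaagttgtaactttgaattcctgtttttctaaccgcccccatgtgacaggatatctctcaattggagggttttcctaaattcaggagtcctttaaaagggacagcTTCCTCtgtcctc
Trem2, chr17:48346151-48346400: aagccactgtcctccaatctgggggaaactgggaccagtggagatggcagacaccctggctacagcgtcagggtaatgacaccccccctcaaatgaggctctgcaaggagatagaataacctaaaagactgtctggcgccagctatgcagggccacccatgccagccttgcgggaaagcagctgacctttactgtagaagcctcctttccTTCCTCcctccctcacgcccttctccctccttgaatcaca
Retnla, chr16:48842359-48842550: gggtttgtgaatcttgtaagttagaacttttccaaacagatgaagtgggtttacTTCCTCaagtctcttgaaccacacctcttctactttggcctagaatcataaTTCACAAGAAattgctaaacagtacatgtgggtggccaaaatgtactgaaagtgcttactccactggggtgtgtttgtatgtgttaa
Gpnmb, chr6:49036268-49036517: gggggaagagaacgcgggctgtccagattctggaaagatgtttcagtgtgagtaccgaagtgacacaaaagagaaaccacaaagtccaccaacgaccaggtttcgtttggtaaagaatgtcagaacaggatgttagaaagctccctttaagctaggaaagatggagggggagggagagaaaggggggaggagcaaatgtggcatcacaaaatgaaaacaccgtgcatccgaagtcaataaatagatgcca

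Distances are counted from the start that RefSeq gives for the window, which lies 22 bases after the end of the sequence shown for Mrc1, 58 bases after it for Retnla and directly after it for the other two. The window of Mrc1 held GAGGAA at 3 places, whose most distal base lay 180, 167 and 35 bases before that start. Trem2 held it once, 40 bases before the start. Retnla held it once, 196 bases before the start, as part of the longer GAGGAAGT, and it was the one gene of the 6 with the STAT6 palindrome, 145 bases before the start. Neither motif was found in the windows of Gpnmb, Cd163 and Chil3. Among all 32851 windows of this length, GAGGAA was found in 28.3%, GAGGAAGT in 3.20% and the STAT6 palindrome in 6.95%. These matches describe the sequence and not the binding of a factor.

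Expression is given in CPM (reads per 1e+06 reads on listed genes, with no length correction). The libraries held between 17.2 M and 29.4 M reads (M, 1e+06), and 3 reads, the detection floor used here, were worth 0.102 to 0.175 CPM. Nelfb was measured at 17.3, 19.6 and 22.3 CPM in CTL against at 5.50, 3.90 and 5.55 CPM in Nelfb-/- cells, as the labels have it. The label calls the cells adipocytes, and the adipocyte markers Fabp4 (a fatty acid carrier) and Cidec (a lipid droplet protein) had 1559.5 CPM or more in every library, the lowest being Cidec in Nelfb-/- replicate 1. These were the most abundant of 8 such markers. Of the 8, 4, Fabp4 among them, were lower in every Nelfb-/- library than in every CTL library, and 1 was higher. Among all genes tested these orders held for 16.1% and 22.0%. Of 30 further pan-macrophage genes on a list, 29 were measured, and their summed level was 447 to 1490 CPM in CTL against 3029 to 11162 CPM in Nelfb-/- cells, so that macrophage transcripts were present in every library of both groups. In bulk RNA, a change in the number of macrophages cannot be told from a change in the RNA of each macrophage.

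Most of these macrophage genes were upregulated in Nelfb-/- cells. Of the 8 genes tested, 6 were called upregulated, at a threshold of 0.05 for the adjusted p and of 2-fold for the change (limma on all 16252 genes that averaged 10 reads or more, with Benjamini-Hochberg adjustment), and the other two had positive log2 fold changes that did not pass. A gene with an average under 10 reads in CTL could enter this test only through its Nelfb-/- reads, which was so for 623 of the genes tested (280 of them upregulated) and, among the 8, for Retnla. Of all genes tested, 7.58% were upregulated, 3.64% were downregulated and 11.2% changed in either direction. The upregulated genes were both pan-macrophage genes, Mrc1, Cd163 and Lyve1 among the 4 tested genes of alternative activation and, of the lipid-associated pair, Trem2. At these 6 genes the Nelfb-/- libraries all exceeded the CTL libraries, which was so for 22.0% of all genes tested, while the reverse order was found for 16.1%. Log2 fold changes are those of Nelfb-/- over CTL after a pseudocount of 1 read, and their median over all genes tested was 0.07.

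**Figure D1:**
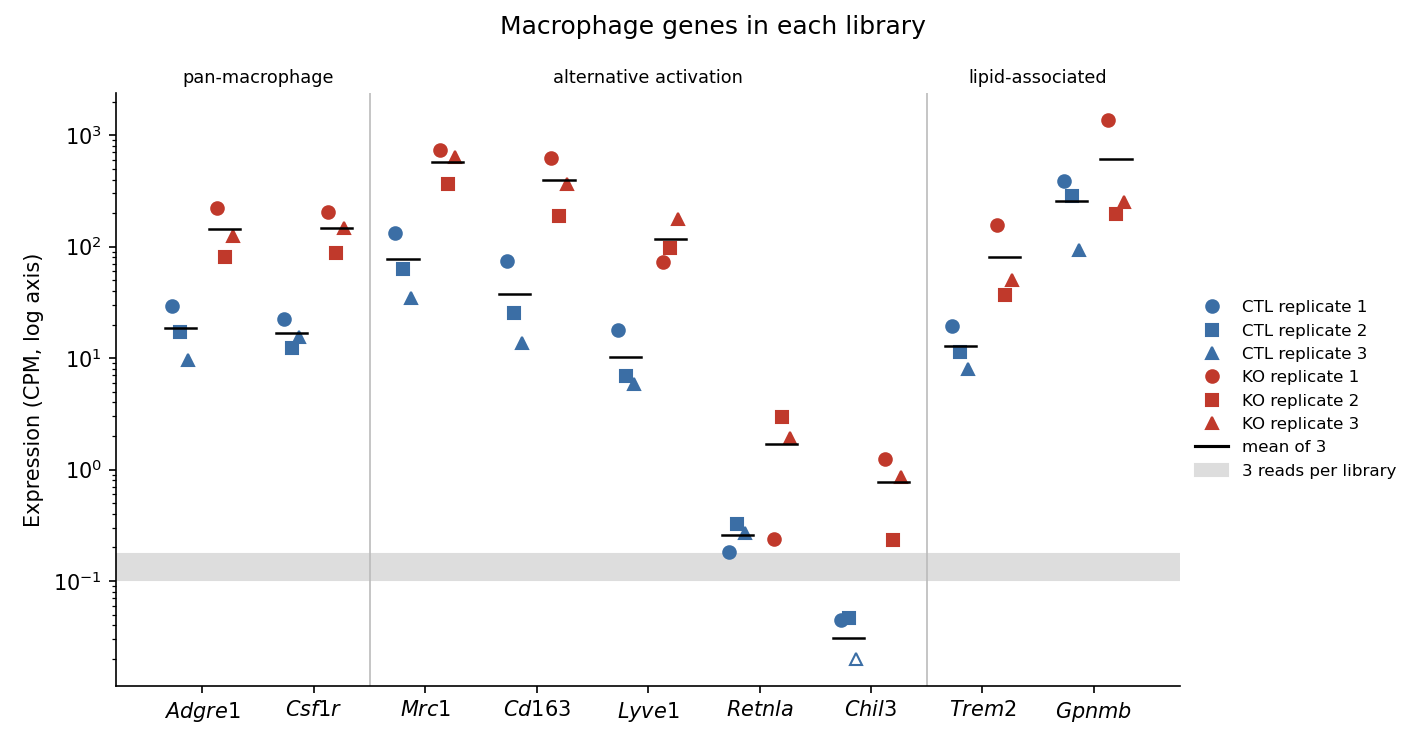
Expression of the 9 macrophage genes in each of the 6 libraries in CPM on a log axis, with CTL in blue, Nelfb-/- (KO) in red, the marker shape giving the replicate, black bars for the mean of 3 and a grey band for the worth of 3 reads. An open marker stands for a value of 0 (Chil3 in CTL replicate 3). The groups are apart at 7 genes and overlap at Retnla and Gpnmb.

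Adgre1 (ENSMUSG00000004730, chromosome 17 from 57358691 to 57483527), an adhesion receptor used as a general marker of mouse macrophages, had 29.3, 17.3 and 9.55 CPM in CTL replicates 1, 2 and 3. In Nelfb-/- replicates 1, 2 and 3 it had 223, 80.1 and 124 CPM. The lowest Nelfb-/- library lay 2.74 times above the highest CTL library. The means were 18.7 ± 9.93 CPM in CTL against 143 ± 73.4 CPM in Nelfb-/- cells (SD, n = 3 each), and the log2 fold change between them was 2.94 (limma, SE 0.51, adjusted p = 0.014). The call was lost without CTL replicate 2 (adjusted p = 0.057, limma) or without Nelfb-/- replicate 3 (adjusted p = 0.066), while the log2 fold change stayed between 2.53 and 3.34 when any single library was left out.

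Csf1r (ENSMUSG00000024621), the receptor for Csf1 and Il34, was the steadier of the pair. It had 22.6, 12.3 and 15.5 CPM in the CTL libraries and 206, 87.0 and 148 CPM in the Nelfb-/- libraries. Each Nelfb-/- library was at least 3.85 times above the highest CTL library. The log2 fold change was 3.08 (limma, SE 0.36, adjusted p = 0.0058), and Csf1r stayed upregulated in all 6 fits that left out 1 library and in all 9 other alternatives.

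The receptors Mrc1 and Cd163 were upregulated by about as much. Mrc1 (ENSMUSG00000026712, chromosome 2 from 14229392 to 14332057), the mannose receptor, had 133, 62.7 and 34.5 CPM in CTL against 736, 364 and 636 CPM in Nelfb-/- cells. The groups did not overlap, and its log2 fold change was 3.07 (limma, SE 0.51, adjusted p = 0.014). Cd163 (ENSMUSG00000008845, chromosome 6 from 124304656 to 124330527), which clears haemoglobin bound to haptoglobin, had 75.0, 25.2 and 13.6 CPM in CTL against 623, 188 and 366 CPM in Nelfb-/- cells. Its log2 fold change was 3.57 (limma, SE 0.69, adjusted p = 0.020). Both kept the order of Adgre1, with replicate 1 highest in each group, CTL replicate 3 lowest in CTL and Nelfb-/- replicate 2 lowest in Nelfb-/- cells. Both also lost the call without CTL replicate 2 (adjusted p = 0.057 for Mrc1 and 0.078 for Cd163, limma) and without Nelfb-/- replicate 3 (0.066 and 0.083). Leaving out 1 library moved the log2 fold change between 2.60 and 3.57 for Mrc1 and between 3.01 and 4.24 for Cd163, the highest without CTL replicate 1.

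Lyve1 (ENSMUSG00000030787, chromosome 7 from 110850607 to 110863239), a receptor for hyaluronan on perivascular macrophages and on lymphatic endothelium, had 17.9, 6.91 and 5.88 CPM in CTL. In Nelfb-/- cells it had 72.4, 97.9 and 178 CPM, and here replicate 1 was the lowest library and not the highest. The groups were still apart by 4.05 times, the widest gap among the 8 of the chosen genes that were tested, and the log2 fold change was 3.58 (limma, SE 0.50, adjusted p = 0.0088). Lyve1 stayed upregulated whichever library was left out. Of 6 markers of lymphatic endothelium, 5 were measured, with a summed level of 30.0 to 34.1 CPM in CTL against 53.8 to 67.5 CPM in Nelfb-/- cells, most of it Pdpn, a mucin that fibroblasts also carry. Reln, a secreted glycoprotein, was the 1 marker of the 4 tested that was upregulated (log2 fold change 1.71, SE 0.34, limma, adjusted p = 0.021), and it lost the call in 4 of the 6 fits that left out 1 library (without CTL replicate 1 or 2 or Nelfb-/- replicate 2 or 3). Prox1, the transcription factor that defines this endothelium, had 0.280 to 0.816 CPM in CTL against 0.524 to 1.61 CPM in Nelfb-/- cells with overlapping groups. The part of lymphatic endothelium in the level of Lyve1 was not tested.

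The secreted products of alternative activation were low, and they divided the Nelfb-/- libraries differently. Retnla (ENSMUSG00000061100, chromosome 16 from 48842551 to 48844461), a secreted protein of the resistin family, had 0.180, 0.327 and 0.272 CPM in CTL, which is 4, 7 and 8 reads. In Nelfb-/- cells it had 0.237, 2.97 and 1.92 CPM, which is 5, 51 and 47 reads. Nelfb-/- replicate 1 lay within the CTL range and the other two lay above it. The log2 fold change of 1.99 did not pass (limma, SE 0.90, 95% confidence interval -0.17 to 4.15, adjusted p = 0.18). Without Nelfb-/- replicate 1 it was 3.03 (SE 0.44, adjusted p = 0.016), whereas it was 1.32 without Nelfb-/- replicate 2 and 1.63 without Nelfb-/- replicate 3 (adjusted p = 0.43 for both, limma).

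Chil3 (ENSMUSG00000040809, chromosome 3 from 106147554 to 106167564), a chitinase-like secreted protein, was at or under 1 read in every CTL library. In Nelfb-/- replicates 1, 2 and 3 it had 26, 4 and 21 reads (1.23, 0.233 and 0.857 CPM), so that replicate 1, low for Retnla, was the highest for Chil3. Its mean in Nelfb-/- cells was at least 5.53-fold higher than the CTL floor of 3 reads per library. The gene had under 10 reads on average and was not tested with the others. With no filter on low values it passed the threshold (limma, adjusted p = 0.031). It also averaged enough reads to be tested when a CTL library was left out, and it did not pass without CTL replicate 1, 2 or 3 (adjusted p = 0.084, 0.085 and 0.051, limma). Reads that Chil3 shares with its near-identical relatives of the chitinase-like family, which were not among the genes with values, could not be assigned with certainty.

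The lipid-associated pair divided. Trem2 (ENSMUSG00000023992, chromosome 17 from 48346401 to 48354147), a receptor that senses lipids, had 19.5, 11.3 and 8.06 CPM in CTL against 156, 36.5 and 50.6 CPM in Nelfb-/- cells. Replicate 1 was far above the other two, and the groups were apart by 1.87 times. The log2 fold change was 2.44 (limma, SE 0.58, adjusted p = 0.037), and the call was lost without any 1 of the CTL replicates 1, 2 and 3 or without Nelfb-/- replicate 3 (adjusted p between 0.066 and 0.12, limma). Its log2 fold change was 1.82 without Nelfb-/- replicate 1, the lowest of these fits, and at most 2.87. Gpnmb (ENSMUSG00000029816, chromosome 6 from 49036546 to 49070929), a glycoprotein of lysosomes and melanosomes, had 386, 285 and 93.2 CPM in CTL against 1376, 196 and 253 CPM in Nelfb-/- cells. Nelfb-/- replicates 2 and 3 lay inside the CTL range. The log2 fold change of 0.91 did not pass (limma, SE 0.85, 95% confidence interval -1.13 to 2.95, adjusted p = 0.50), and it ranged from 0.04 without Nelfb-/- replicate 1 to 1.44 without Nelfb-/- replicate 2.

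Gpnmb is also a gene of pigment cells. Of 8 melanocyte markers, 7 were measured, with a summed level of 7.67 to 9.35 CPM in CTL against 81.8 to 119 CPM in Nelfb-/- cells. Tyrp1, an enzyme of melanin synthesis, was at 0, 0 and 0.0680 CPM in CTL against between 11.5 and 34.9 CPM in Nelfb-/- cells. Sox10, a factor of melanocytes and glia, had 6.45 to 7.93 CPM in CTL against 41.2 to 50.9 CPM in Nelfb-/- cells. Tyr, Tyrp1, Mlana and Slc45a2 had no more than 3 reads in any CTL library and, like Dct, were tested only because of their reads in Nelfb-/- cells. All 7 passed the threshold, among them the 2 that did not depend on such reads, Sox10 and Pmel (median log2 fold change 2.14). The count of the 7 was 4 to 7 when 1 library was left out, the lowest without Nelfb-/- replicate 3, where 5 were tested. The groups overlapped for Gpnmb, as given above, and the part of pigment cells in the level of Gpnmb was not tested. Of the transcription factors that act on Gpnmb, Mitf had 62.8, 72.4 and 47.2 CPM in CTL against 96.3, 21.6 and 26.8 CPM in Nelfb-/- cells, also with replicate 1 far above the other two (log2 fold change -0.65, SE 0.55, limma, adjusted p = 0.47).

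**Figure D2:**
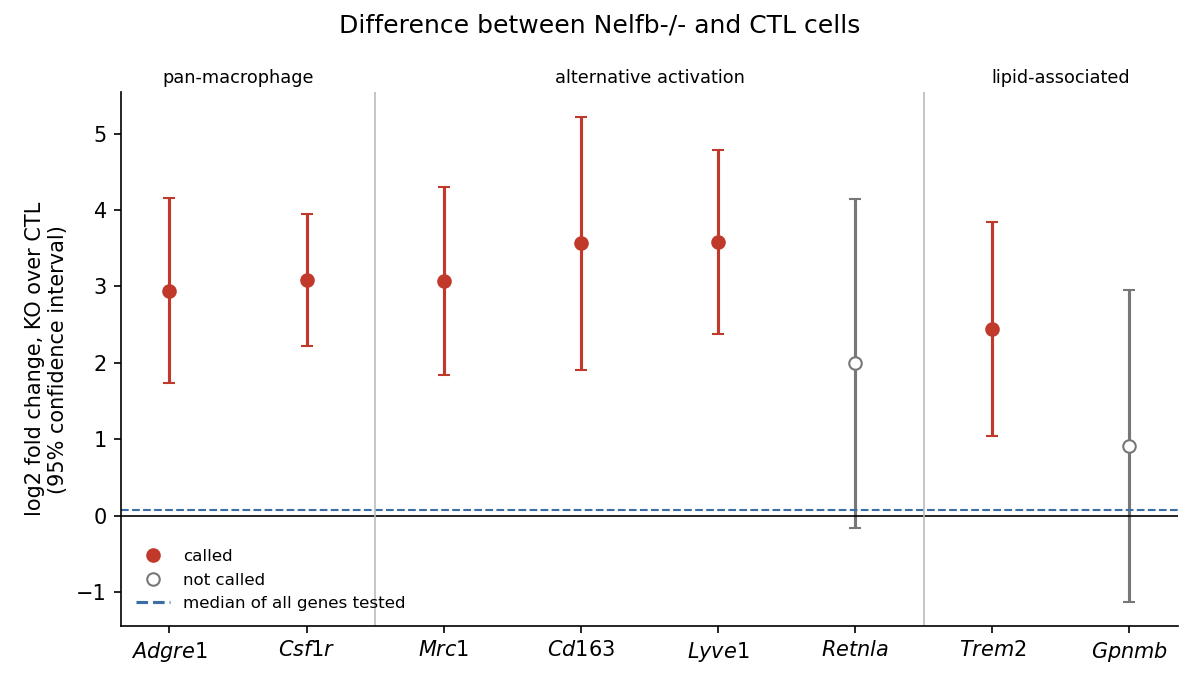
Log2 fold change of Nelfb-/- (KO) over CTL cells for the 8 genes tested, with 95% confidence intervals from limma, filled where the gene passed the threshold. The 6 genes that passed lie between 2.44 and 3.58, Retnla and Gpnmb have intervals that include 0, and the dashed line marks the median of all genes tested, 0.07.

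The number of genes called depended on single libraries. Of the 8 genes, 2 passed without CTL replicate 2 (Csf1r and Lyve1) and 2 without Nelfb-/- replicate 3 (the same genes), whereas 7 passed without Nelfb-/- replicate 1. Without moderation of the variances between genes, Csf1r alone passed, and the number of all genes called fell from 1824 to 684.

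By mean level per length of transcript the 9 genes stood in the same order in both groups, which rested on Nelfb-/- replicate 1. Per kilobase of exon, mean levels in CTL ran from 39.1 CPM for Gpnmb through 12.0 for Mrc1, 6.95 for Cd163, 5.78 for Adgre1, 3.50 for Lyve1, 2.91 for Csf1r and 2.62 for Trem2 to 0.434 for Retnla and 0.0187 for Chil3. In Nelfb-/- cells the same order ran from 93.4 CPM per kilobase for Gpnmb, 90.8 for Mrc1 and 71.9 for Cd163 to 2.85 for Retnla and 0.474 for Chil3. Without Nelfb-/- replicate 1 the order there was Mrc1 (78.4 CPM per kilobase), Cd163 (50.7), Lyve1 (47.3) and Gpnmb (34.5), followed by Adgre1 (31.5). Most neighbours in this order did not differ beyond the spread of the libraries. Of the 8 neighbouring pairs, the library ranges were apart for 2 in CTL (Trem2 over Retnla and Retnla over Chil3) and for 1 in Nelfb-/- cells (Trem2 over Retnla).

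To see which genes rose more or less than the pan-macrophage pair, each gene was divided by the geometric mean of Adgre1 and Csf1r in the same library. Mrc1 kept its proportion, with ratios of 5.17, 4.30 and 2.84 in CTL and 3.44, 4.36 and 4.69 in Nelfb-/- cells. Cd163 had ratios of 2.92, 1.73 and 1.11 in CTL and between 2.25 and 2.91 in Nelfb-/- cells, again with overlapping groups. The ratio of Lyve1 was 0.694, 0.474 and 0.483 in CTL, while it was 0.338 in Nelfb-/- replicate 1 and 1.17 and 1.32 in replicates 2 and 3. The Nelfb-/- libraries thus lay on either side of all CTL libraries.

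Among the 6 genes compared, Gpnmb was the one whose ratio parted the groups. It was 15.0, 19.5 and 7.65 times the pan-macrophage pair in CTL and 6.42, 2.35 and 1.87 times in Nelfb-/- cells, so that the 3 Nelfb-/- ratios were all below the 3 CTL ratios. The difference was -2.10 on the log2 scale (exact two-sided permutation test, p = 0.1, the smallest p that 3 against 3 libraries allow), and it stayed between -2.64 and -1.75 when any 1 library was left out. Adgre1 and Csf1r themselves rose (log2 fold changes 2.94 and 3.08), so a gene that changes little has a lower ratio in Nelfb-/- cells. The log2 fold change of Gpnmb was 0.91, and the share of all genes whose ratio would part the groups was not computed. The ratio of Trem2 was 0.758, 0.775 and 0.662 in CTL and 0.729, 0.437 and 0.374 in Nelfb-/- cells, a difference of -0.57 with overlapping groups (exact permutation test, p = 0.2). For Mrc1, Cd163, Lyve1 and Retnla the exact p was 0.4 or 0.8. These 6 comparisons share their denominator and cannot pass a threshold of 0.05 with 3 libraries in each group. In shares of the reads on the 9 genes, Gpnmb took 56.5%, 67.6% and 51.6% in CTL and 40.5%, 18.6% and 14.4% in Nelfb-/- cells, while Mrc1 took 19.5%, 14.9% and 19.1% in CTL and 21.7%, 34.5% and 36.1% in Nelfb-/- cells.

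**Figure D3:**
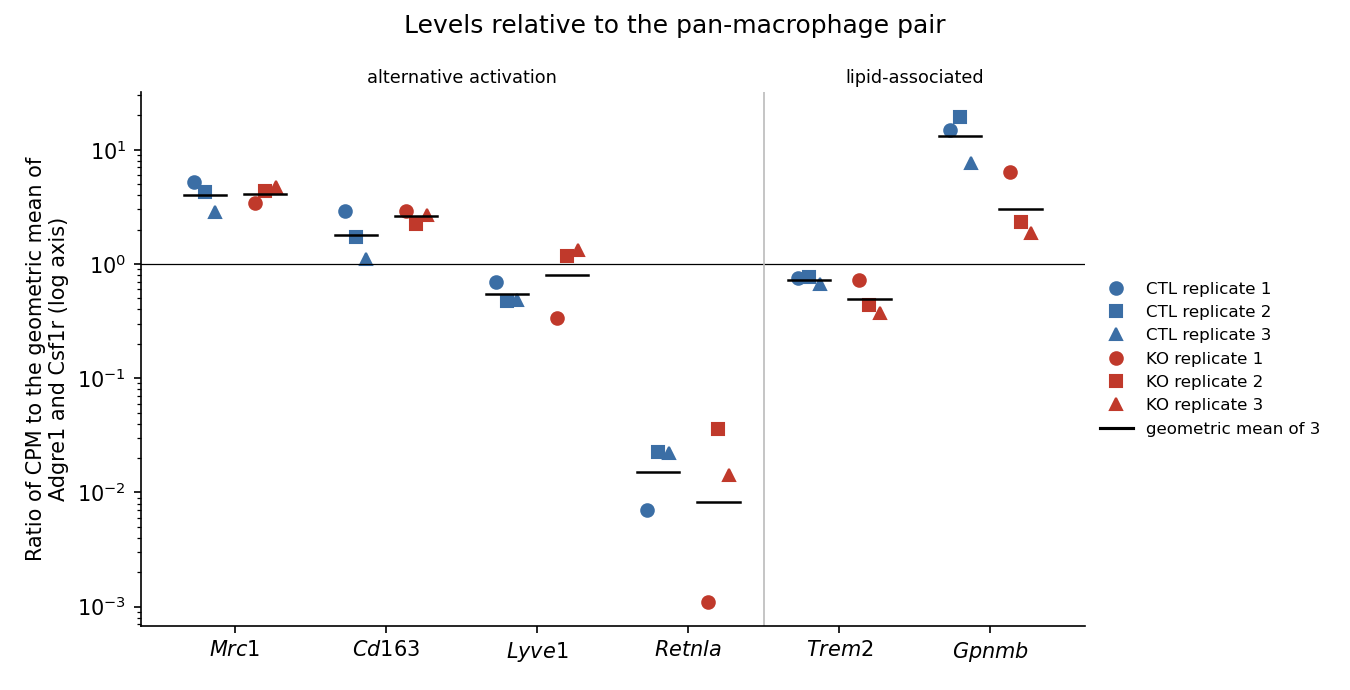
Ratio of each gene to the geometric mean of Adgre1 and Csf1r in the same library on a log axis, with CTL in blue, Nelfb-/- (KO) in red, marker shapes for replicates and black bars for the geometric mean of 3 libraries. The groups overlap for all genes but Gpnmb, whose CTL ratios of 7.65 to 19.5 all lie above the Nelfb-/- ratios of 1.87 to 6.42, and Nelfb-/- replicate 1 is the lowest library for Lyve1 and Retnla.

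The genes most like the pan-macrophage pair across the 6 libraries were found from log2 values centred on their mean, as the root mean square difference from the mean profile of Adgre1 and Csf1r. This is a description over 6 libraries of 2 groups. The 10 nearest of 16250 genes were Tmem8, Trpv4, Gna15, Pf4, Slc16a14, Evi2b, Ms4a6d, Mctp2, Myo1g and Hcls1, with differences of 0.086 to 0.149 where the median gene had 1.60. Pf4, a chemokine of platelets and resident macrophages, rose from 9.10 to 67.4 CPM, and Ms4a6d, a membrane protein of the Ms4a family of myeloid cells, from 17.6 to 167 CPM. Hcls1, an actin regulator of blood cells, rose from 3.46 to 27.8 CPM. All 10 were upregulated past the threshold, a direction that the choice by likeness fixes. Among the genes described here, Mrc1 came 55th (0.292), Trem2 122nd (0.413), Cd163 175th (0.499) and Lyve1 413th (0.712). Gpnmb came 2109th (1.25), farther than these but nearer than the median gene, and Retnla came 8050th (1.60), close to the median gene. The closest 2 of the tested genes to each other were Adgre1 and Mrc1 (0.228), and the farthest apart were Retnla and Gpnmb (2.14).

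Most other pan-macrophage genes were upregulated as well. Of the 28 tested, 20 were upregulated and 8 did not pass, with a median log2 fold change of 2.75 beside 0.07 for all genes. The largest changes were those of Cyth4 (4.36), an exchange factor for Arf proteins in leukocytes, the Fc receptor Fcgr1 (4.11), Ms4a6c (3.75) and Aif1 (3.74), a calcium-binding protein also called Iba1. Aif1 had 0.0451, 0.187 and 0.102 CPM in CTL and was tested only through its reads in Nelfb-/- cells, and of the other 27 genes 19 were upregulated. Mertk, a receptor that clears dying cells, had the smallest change, with 68.2, 61.7 and 45.1 CPM in CTL against 181, 40.7 and 61.9 CPM in Nelfb-/- cells (log2 fold change 0.42, SE 0.53, limma, adjusted p = 0.62). Sirpa, the receptor for Cd47, had a log2 fold change of 1.39 and passed. The count fell to 6 without CTL replicate 2 and to 5 without Nelfb-/- replicate 3, and 4 passed without moderation of the variances. It was 15 or 16 without any other library and 26 with the replicate number as a block.

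The ligands of Csf1r were measured beside it. Csf1, which fibroblasts and adipocytes secrete, had 168, 137 and 413 CPM in CTL against 536, 630 and 560 CPM in Nelfb-/- cells. The groups did not overlap, but the log2 fold change of 1.44 did not pass (limma, SE 0.41, adjusted p = 0.060). Il34, the second ligand, had 2.84, 5.88 and 7.45 CPM in CTL against 8.16, 11.6 and 10.1 CPM in Nelfb-/- cells (0.97, SE 0.38, adjusted p = 0.13). Of 18 tested genes of the Csf1r axis and of myeloid transcription factors, 7 were upregulated and 11 did not pass, with a median log2 fold change of 1.21. The largest were Tfec (3.77), a factor of the Mitf family in macrophages, Csf2rb (3.18), the shared chain of several cytokine receptors, Spi1 (2.91), which encodes PU.1, and Irf8 (2.54), a factor of monocyte development. Klf4 (0.22) and Bhlhe41 (0.34) changed least, and neither passed. Without CTL replicate 2 the count was 3, and without Nelfb-/- replicate 3 it was 2. It was 6 to 8 without any other library and 8 with the replicate number as a block.

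Among 18 further genes of alternative activation and tissue residency that were tested, 9 were upregulated, 1 was downregulated and 8 did not pass, with a median log2 fold change of 2.14. Stab1, a scavenger receptor, had 29.1, 10.4 and 13.7 CPM in CTL against 255, 198 and 353 CPM in Nelfb-/- cells (4.02, SE 0.41, limma, adjusted p = 0.0042). Msr1 (3.36) and Folr2 (3.27), a scavenger and a folate receptor, and the chemokine Ccl8 (3.32) were the next. Ccl8 was low and was tested only through its reads in Nelfb-/- cells, with 0.271, 0 and 0.102 CPM in CTL against 0.898 to 1.85 CPM in Nelfb-/- cells, and it lost its call in 5 of the 6 fits that left out 1 library, all but that without CTL replicate 1 (adjusted p at most 0.107, limma). Irf4, a transcription factor of IL4 responses, had the most negative value, with 39.9, 42.7 and 11.4 CPM in CTL against 24.7, 1.46 and 1.84 CPM in Nelfb-/- cells (-2.71, SE 1.13, adjusted p = 0.15). Stat6 itself, the factor that IL4 activates, had a log2 fold change of 0.10 (SE 0.20, adjusted p = 0.76), and Gas6, a ligand of Mertk, one of -0.40 (SE 0.34, adjusted p = 0.45). Tgm2, a crosslinking enzyme that fibroblasts and adipocytes also make, was the downregulated gene (-1.55, SE 0.26, limma, adjusted p = 0.014), a call lost without CTL replicate 2 or Nelfb-/- replicate 3. The upregulated genes numbered 2 without Nelfb-/- replicate 3, 7 to 9 without any other library and 13 with the replicate number as a block.

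Classical activation is the inflammatory programme that is often set against alternative activation. Of 12 tested genes, 7 were upregulated and 5 did not pass, with a median log2 fold change of 2.19. Il6, Tnf, Il1a and Cxcl9 were tested only through their reads in Nelfb-/- cells, and of the other 8 genes 5 were upregulated. Il6 had 0.0451, 0.0467 and 0.0340 CPM in CTL, which is 1 read each and under the floor, and between 0.853 and 2.15 CPM in Nelfb-/- cells. Cd38 (3.0), an enzyme that consumes NAD, the chemokine Cxcl10 (2.83) and the co-stimulatory ligand Cd86 (2.67) were upregulated. Il1a (0.11) and Ptgs2 (0.89), which makes prostaglandins, did not pass. Nos2, which makes nitric oxide, had at most 0.680 CPM in CTL against 0.233 CPM in Nelfb-/- cells and was not tested. Without Nelfb-/- replicate 3 the count was 3. It was 5 to 10 without any other library, the highest without CTL replicate 3, where 13 were tested, and 8 with the replicate number as a block.

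Of 23 tested further genes of the lipid-associated programme, 2 were upregulated, 1 was downregulated and 20 did not pass, and 13 had a positive log2 fold change. Their median was 0.09 beside 0.07 for all genes, and it turned to -0.30 without Nelfb-/- replicate 1 and to -0.14 without CTL replicate 3, and came to 0.42 without Nelfb-/- replicate 2. The lysosomal enzymes Ctsb (1.21), Ctsd (1.12) and Lipa (1.0) had every Nelfb-/- library above every CTL library and did not pass (adjusted p = 0.10, 0.086 and 0.20, limma). Spp1, osteopontin, had 596, 749 and 603 CPM in CTL against 1929, 1719 and 1612 CPM in Nelfb-/- cells (1.44, SE 0.21, limma, adjusted p = 0.0092), and Itgax, an integrin of dendritic cells and fat macrophages, rose from at most 0.330 CPM to between 0.705 and 2.11 CPM (3.38, SE 0.86, adjusted p = 0.044). Spp1 lost its call without Nelfb-/- replicate 3 (adjusted p = 0.053, limma), and Itgax, which was tested only through its reads in Nelfb-/- cells, kept its call in 1 of the 6 fits that left out a library, the one without CTL replicate 2. Fabp5, a fatty acid carrier that adipocytes also make, was downregulated (-1.63, SE 0.17, adjusted p = 0.0042). Apoe (-0.02) and Ctsz (0.06), an apolipoprotein and a lysosomal protease, changed least. Several genes on this lipid list, Fabp4, Lpl and Plin2 among them, are abundant in adipocytes themselves, and the part of adipocyte transcripts in the median was not tested. The 8 adipocyte markers had a summed level of 16822 to 25402 CPM in CTL against 7756 to 17135 CPM in Nelfb-/- cells.

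Of 9 tested genes of arginine metabolism, 2 were upregulated and 7 did not pass, with a median log2 fold change of -0.07. These were Gatm (3.18, SE 0.32, limma, adjusted p = 0.0042), which makes the precursor of creatine from arginine, and Odc1 (2.28, SE 0.24, adjusted p = 0.0043), which turns ornithine into putrescine. Odc1 had 59.5, 69.6 and 99.7 CPM in CTL against 306, 441 and 352 CPM in Nelfb-/- cells. Ass1 (-0.07) and Srm (0.24), of arginine and spermidine synthesis, did not pass.

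Relatives of the 9 genes were measured too. Retn, resistin, an adipocyte hormone in the family of Retnla, was downregulated from 427, 470 and 206 CPM in CTL to 103, 75.6 and 64.6 CPM in Nelfb-/- cells (-2.12, SE 0.35, limma, adjusted p = 0.013). Pmel, the melanosome protein related to Gpnmb, was upregulated from 0.884 to 1.13 CPM in CTL to between 2.42 and 4.37 CPM in Nelfb-/- cells (1.67, SE 0.32, adjusted p = 0.019). Both lost the call in the same 4 of the 6 fits that left out 1 library, those without CTL replicate 1 or 2 or Nelfb-/- replicate 2 or 3 (adjusted p at most 0.066 for Retn and 0.097 for Pmel, limma). Mrc2 (0.08) and Adgre5 (0.12), relatives of Mrc1 and Adgre1, and Stab2 (1.97) and Treml1 (1.23), tested only through their reads in Nelfb-/- cells, did not pass. Trem1, Treml2 and Treml4 stayed at or under 0.664 CPM in every library and were not tested.

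**Figure D4:**
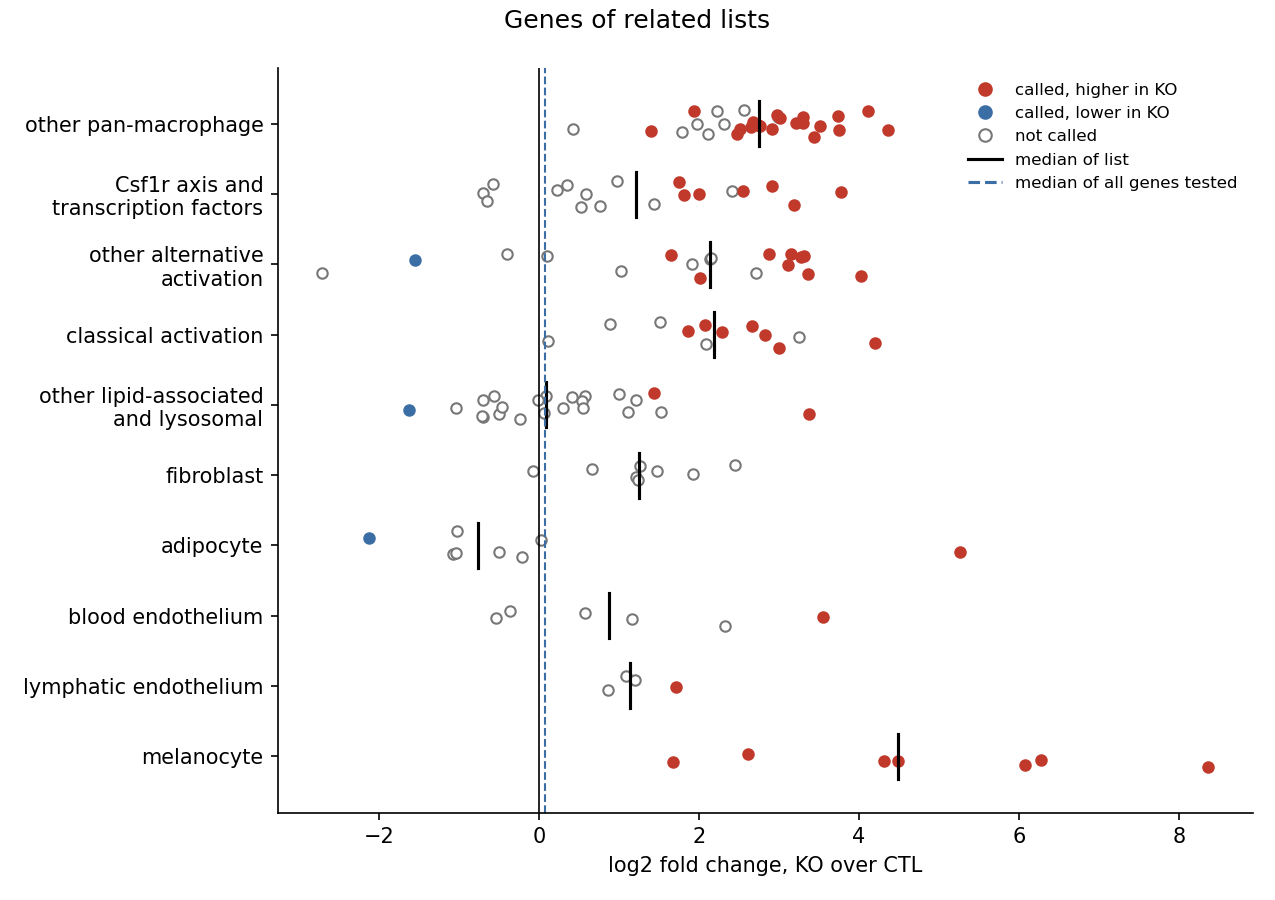
Log2 fold changes of Nelfb-/- (KO) over CTL cells for the tested genes of 10 lists, each point 1 gene, filled red or blue where it passed the threshold, with a black bar at the list's median and a dashed line at the median of all genes tested. The medians are 2.75 for the other pan-macrophage genes, 2.14 for alternative and 2.19 for classical activation, 0.09 for the other lipid-associated genes, and 4.49 for melanocyte markers, a value that depends on the pseudocount since 4 of these are near 0 in CTL. Of the 7 melanocyte markers, 5 were tested only through their reads in Nelfb-/- cells, and the median of the other 2 is 2.14. Points are spread in height for legibility.

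Markers of other cell types were measured in the same libraries. Of 9 T cell markers 2 were measured (Lck and Trac), at most at 0.616 CPM, and the 4 measured of 9 neutrophil markers summed to at most 3.61 CPM. Of 6 B cell markers 2 were measured, Blnk and Pax5, and their sum was 0.306 to 2.89 CPM in CTL against 3.09 to 18.3 CPM in Nelfb-/- cells, nearly all of it Blnk, an adaptor that myeloid cells carry too. Dendritic cell markers were measured for 4 of 7 (sum 6.73 to 11.0 CPM in CTL against 5.71 to 9.58 CPM in Nelfb-/- cells), mast cell markers for 6 of 10 (2.04 to 5.04 and 4.13 to 12.8 CPM), and osteoclast markers for 4 of 6 (46.5 to 81.2 and 69.6 to 83.4 CPM, nearly all Ctsk, a protease of fibroblasts as well). Of these 3 lists, Gata2 was the 1 upregulated gene. The 2 Langerhans cell markers on the list were not among the genes with values. The 8 blood endothelial markers summed to 7.85 to 12.1 CPM in CTL against 9.20 to 23.5 CPM in Nelfb-/- cells, with 1 of 6 tested upregulated (Emcn). Keratinocyte markers were measured for 6 of 7 (2.79 to 3.45 and 7.11 to 15.1 CPM), with 1 of 4 tested upregulated (Krt14), and Schwann cell markers for 4 of 5 (38.9 to 46.9 and 64.0 to 73.5 CPM), with 2 of 4 upregulated (Foxd3 and Erbb3) and 1 downregulated (Mbp). Foxd3 and Erbb3 passed whichever library was left out, whereas Gata2, Emcn and Mbp passed in 2 of the 6 such fits and Krt14 in 1, and Gata2, Emcn and Krt14 were tested only through their reads in Nelfb-/- cells. The part of these cells in the levels of the macrophage genes was not tested.

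Fibroblast markers, the collagens above all, divided the Nelfb-/- libraries as Lyve1 and Retnla did, with replicate 1 lowest, but not the CTL libraries. Most of their reads were those of 3 collagens (Col1a1, Col1a2 and Col3a1), at 77.5% to 92.9% of the sum in each library. All 8 summed to 8414 CPM in Nelfb-/- replicate 1 and to 30772 and 33448 CPM in replicates 2 and 3, beside 5040, 4402 and 16922 CPM in CTL. In CTL, replicate 3 had the highest sum but the lowest Lyve1 (5.88 CPM), and Retnla was highest in replicate 2 (0.327 CPM). The 5 markers that are not collagens summed to 1541 CPM in Nelfb-/- replicate 1 and to 2207 and 2383 CPM in replicates 2 and 3, and Pdgfra was nearly level at 476, 499 and 509 CPM. Of the 8 markers, 0 passed the threshold. Their median log2 fold change was 1.25, and 4 of the 8 had an unadjusted p under 0.05 in limma. With voom weights 0 passed, and 3 passed with the replicate number as a block. Without CTL replicate 3, 4 of the 8 were upregulated, and without Nelfb-/- replicate 1 the count was 1. The same Nelfb-/- replicate 1 had the highest level of 7 of the 9 macrophage genes and the lowest of Lyve1 and Retnla. The 8 adipocyte markers divided these libraries in the same way, summing to 7756 CPM in Nelfb-/- replicate 1 and to 17135 and 13564 CPM in replicates 2 and 3. Whether the share of fibroblasts or of adipocytes bears on this division was not tested.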

How the data were processed

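RNA-seq values of 3 CTL and 3 Nelfb-/- libraries were read as deposited by the authors, in CPM without a correction for gene length. Each column summed to 1e+06 after an offset of 0.0001 was subtracted. Per the labels the build was mm10 and the tools were STAR 2.7 and Partek 9.0.20.0202, whereas the methods name DESeq2 for the alignment and an ANOVA in Partek, and leave out genes under 10 reads. How reads were counted, and whether by strand, is not given in the sources used here. The lowest values rose in steps that gave the worth of 1 read and the depth, but at up to 20 reads only 69.3% to 71.9% of values were whole (within 0.02 reads), so that no count test was used.

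CPM was brought to reads at one depth of 22.3 M, and genes that averaged 10 reads or more were compared in limma (3.58.1, R 4.3.3) on log2(reads + 1) with an abundance trend and Benjamini-Hochberg adjustment over all of them. Fold changes of low genes are understated on this scale. The replicates are biological, though whether each was a separate animal is not stated, and p-values measure the spread between these libraries. The script was also tested on simulated data. Ensembl IDs and exon lengths come from GENCODE vM21 (GRCm38), positions from the table. Ratios, likeness and motifs were computed with Python 3.11.15, numpy 2.4.6, pandas 2.3.3 and scipy 1.17.1, and figures with matplotlib 3.10.9.

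The genes and lists were chosen with earlier results of these data known, the lists from general knowledge, so that their counts are descriptions with no test. Named from each list are the 4 genes that passed with the largest change and the 2 tested with the smallest, the close relatives of the 9 genes, and the 2 most abundant markers of each cell type, besides Nelfb, the ligands of Csf1r and the 10 genes most like the pan-macrophage pair. Mitf, Tgm2, Irf4, Ctsb, Ctsd, Lipa, Tyr, Mlana, Slc45a2, Prox1, Nos2, Lpl, Plin2, Emcn, Foxd3, Erbb3, Pdgfra, Col1a2, Tnf, Cxcl9, Dct and Lep were named after their values were seen. Alternatives were other pseudocounts, filters and scalings, no moderation of the variances, weights from voom, a term for the replicate number and leaving out each library. One of the chosen genes, 1 of its relatives and 1 Schwann cell marker are not reported here, and counts of members and of those lists leave them out. Other assays of the study were not used here.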

Additional observations from a re-analysis of the deposited data

How the results depend on the processing

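Csf1r and the fall of Nelfb kept their calls under every alternative run, and the log2 fold change of Nelfb stayed between -2.08 and -1.82 when 1 library was left out. Without moderation of the variances, 684 genes were called (438 higher and 246 lower in Nelfb-/- cells, beside 1232 and 592) and 1 of the 9 macrophage genes, Csf1r. When 1 library was left out, 426 to 2479 genes were called (290 to 1703 higher and 136 to 776 lower), with the fewest without Nelfb-/- replicate 3, and 2 to 7 of the macrophage genes. The fits with fewer libraries also have fewer degrees of freedom, and the cause was not tested. The other pseudocounts, filters, scalings and voom weights gave 1699 to 1966 genes and 6 to 7 macrophage genes, with Chil3 gained where the filter on low values was looser, which it meets through Nelfb-/- libraries alone when 10 reads in 1 library are enough. The scalings moved the median of all genes by -0.07 on the log2 scale. The ratio of Mrc1 to the pan-macrophage pair turned from 0.05 to -0.19 on the log2 scale without CTL replicate 3 and to -0.04 without Nelfb-/- replicate 3. That of Retnla turned from -0.89 to 0.56 without Nelfb-/- replicate 1, and the cause was not tested. The ranges over all single libraries were -0.19 to 0.24 for Mrc1 and -1.94 to 0.56 for Retnla. Deviations of same-numbered libraries from their group means correlated at 0.52, -0.39 and 0.52, and 3 of 6 libraries correlated best with their own number. With 3 libraries in each group these values cannot decide whether the replicate numbers pair the samples. With the replicate number as a block, 2175 genes, 6 macrophage genes and 3 of the 8 fibroblast markers (0 without it) were called. Depth limits Chil3 and Retnla, which had at most 1 and 8 reads in any CTL library.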
